A study of Mus musculus with 29 samples.

Results

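Intervals of histone H3 acetylated at lysine 9 (H3K9ac) were compared between Tbr2-positive and Tbr2-negative nuclei of the embryonic mouse cortex. All libraries used for this comparison came from vehicle-treated cortex at E16.5. The members are the 7 H3K9ac vehicle libraries of the 29 samples of the series, 3 Tbr2-positive and 4 Tbr2-negative, chosen by their labels. Their lists held 472240 peaks, which merged into 180672 regions where peaks of any list overlapped by at least 1 bp. RNA-seq of the same populations (3 vehicle libraries each) and 8 H3K9ac libraries from cortex treated with the deacetylase inhibitor TSA (4 of each population) served as measurements made in other samples. No genotype other than the sorted population is given, and no strain. The labels do not say that replicates came from separate animals, so every p-value here refers only to the variation among these samples, which may be technical. Per the labels' protocols, chromatin came either from fixed sorted nuclei or from whole tissue, and RNA from whole tissue, while the sample names give the sorted population. Each population had 1 input library for peak calling, so a difference between populations and a difference between their inputs cannot be told apart.

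Acetylation of H3 at lysine 9 marks nucleosomes around the start sites of active genes and at many active enhancers. It is written by acetyltransferases such as Gcn5 and Pcaf and removed by deacetylases. Tbr2, the product of Eomes, is a T-box factor of the basal (intermediate) progenitors, which arise from Pax6-positive radial glia and divide in the subventricular zone to make glutamatergic neurons. Tbr2-negative nuclei of a cortex at this age include radial glia, postmitotic neurons and interneurons that migrate in from the ganglionic eminences. Eomes gives a check of the sort. Its RNA stood at 443 ± 93.3 CPM (counts scaled to a common library total; mean ± SD, n = 3) in the positive and 18 ± 4.04 CPM (n = 3) in the negative vehicle libraries. At its start the H3K9ac pileup, the number of ChIP fragments that overlap the summit of the peak, was 63, 61 and 65 in the positive libraries and 21, 18, 19 and 14 in the negative ones.

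The 250 bases upstream of 5 transcript starts are shown as examples of starts beside differing regions, chosen after their values were seen. Eomes had a taller and wider peak in the positive lists. A region at the start of Neurod4 and a region 33 bases from the start of Nhlh1 carried a peak in all 3 positive lists and in no negative one, and regions at Hs3st2 and Galnt9 in all 4 negative lists and in no positive one. The printed Nhlh1 window lies outside that region and overlaps another, chr1:172057777-172058000, with a peak in 2 negative lists (14 and 14 fragments) and in no positive one. Sequences run 5′ to 3′ on the gene's strand, are taken from RefSeq (GRCm38.p6) and have every CG dinucleotide in capitals.
Eomes, chr9:118477939-118478188, plus strand: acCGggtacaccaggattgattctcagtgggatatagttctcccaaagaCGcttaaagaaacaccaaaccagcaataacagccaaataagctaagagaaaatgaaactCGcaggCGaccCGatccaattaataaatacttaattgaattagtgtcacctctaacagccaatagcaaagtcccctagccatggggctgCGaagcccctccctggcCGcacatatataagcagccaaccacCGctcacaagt
Neurod4, chr10:130280255-130280504, minus strand: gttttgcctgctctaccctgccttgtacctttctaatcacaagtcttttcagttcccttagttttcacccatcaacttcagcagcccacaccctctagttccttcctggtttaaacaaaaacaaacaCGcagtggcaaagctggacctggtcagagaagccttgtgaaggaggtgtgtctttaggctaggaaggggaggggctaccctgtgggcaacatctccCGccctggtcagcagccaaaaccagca
Nhlh1, chr1:172057597-172057846, minus strand: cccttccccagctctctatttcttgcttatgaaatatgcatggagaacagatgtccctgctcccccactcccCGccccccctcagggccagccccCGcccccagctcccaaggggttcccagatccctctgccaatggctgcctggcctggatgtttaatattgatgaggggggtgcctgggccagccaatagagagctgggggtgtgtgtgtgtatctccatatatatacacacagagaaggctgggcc
Hs3st2, chr7:121392046-121392295, plus strand: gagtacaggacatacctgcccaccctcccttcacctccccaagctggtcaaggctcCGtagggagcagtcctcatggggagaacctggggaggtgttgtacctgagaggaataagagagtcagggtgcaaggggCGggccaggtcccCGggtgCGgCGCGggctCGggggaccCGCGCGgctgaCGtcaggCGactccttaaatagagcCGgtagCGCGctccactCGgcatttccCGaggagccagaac
Galnt9, chr5:110544105-110544354, plus strand: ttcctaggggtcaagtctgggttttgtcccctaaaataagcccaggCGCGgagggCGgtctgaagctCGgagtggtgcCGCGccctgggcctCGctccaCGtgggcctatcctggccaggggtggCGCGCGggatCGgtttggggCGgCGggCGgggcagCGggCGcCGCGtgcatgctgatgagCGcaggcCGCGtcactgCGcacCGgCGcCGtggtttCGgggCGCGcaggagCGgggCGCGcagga
Neurod4 and Nhlh1 hold 2 CG dinucleotides each in these 250 bases, Eomes 8, Hs3st2 17 and Galnt9 32. A second Neurod4 start inside the same region, with its window at chr10:130280139-130280388, holds 7. Over the 25 windows whose start lay in a region found in positive lists only, the median ratio of observed to expected CG was 0.379. It was 0.552 over 85 windows in regions of negative lists only, 0.679 over 512 windows in regions with a higher pileup rank in the positive libraries, 0.680 over 670 with a lower rank and 0.746 over 12164 in regions of all 7 lists that passed in neither direction. The median over all 32851 windows was 0.373. The hexamer CAGATG, a binding motif of Neurog and Neurod factors searched on both strands, occurred in 14.4% of all windows. It was found in 10.9% of the windows with a higher rank, in 11.04% of those with a lower rank and in 8.87% of those that passed in neither direction, and of the sequences above Nhlh1 holds it. The T-box motif AGGTGTGA, on both strands, occurred in 1.12% of all windows and in 5 of the 512 windows with a higher rank (0.977%). It was found in 3 of the 670 with a lower rank (0.448%) and in 69 of the 12164 that passed in neither direction (0.567%). These matches describe letters in the windows and do not show binding.

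The lists held 82164, 61487 and 63496 peaks in positive replicates 1 to 3 and 60637, 78773, 69280 and 56403 in negative replicates 1 to 4. ChIP depth was 25.8 to 29.5 Mreads of tags, and each library was below the input of its own population (30.1 Mreads positive, 28.5 Mreads negative). The 2 longest lists, 1 of each population, were also the 2 with the lowest median pileup (12 fragments against 14 in the rest), and they were sequenced on the first lane together with negative replicate 1. The mean number of peaks did not separate the populations (69049 ± 11402, n = 3, against 66273 ± 9907, n = 4; exact permutation p = 0.743 two-sided, where the smallest p that 35 splits allow is 0.0571). Gene ends, taken as 1 kb on either side of either end of an annotated gene because the gene table carries no strand, held 35.004% ± 3.38 of positive and 35.3% ± 3.22 of negative peaks. Gene bodies held 47.0% ± 2.74 and 47.7% ± 2.52. Between genes lay 18.05% ± 0.673 of positive and 16.97% ± 0.714 of negative peaks (exact permutation p = 0.114, adjusted p = 0.400 over 7 measures).

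**Figure D1:**
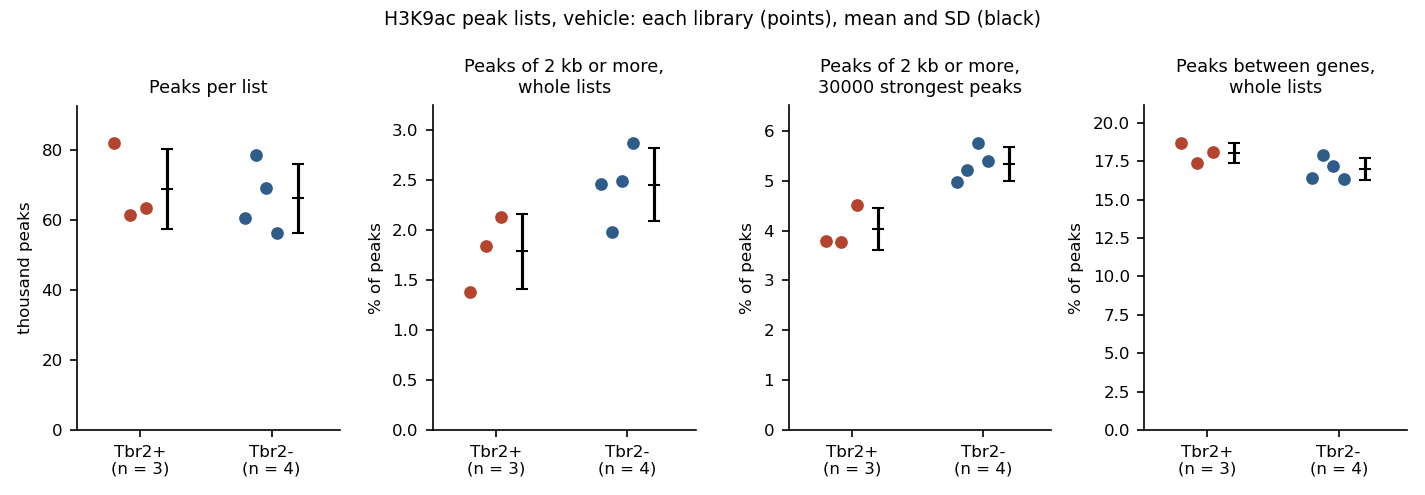
Peaks per list, the share of peaks of 2 kb or more in whole lists and in the 30000 strongest peaks of each list, and the share between genes, for each library (points) with mean and SD. Among the 30000 strongest peaks the broad share of the 3 positive libraries (3.78% to 4.51%) lies below that of the 4 negative libraries (4.97% to 5.76%).

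Broad peaks were fewer in the positive lists. Peaks of 2 kb or more made up 1.38%, 1.84% and 2.13% of the positive lists and 2.46%, 1.98%, 2.49% and 2.87% of the negative ones, and the ranges overlapped in whole lists (exact permutation p = 0.114, adjusted p = 0.400). With the 30000 peaks of highest -log10 q in each list, so that all lists have the same length, the share was 3.78%, 3.78% and 4.51% against 4.97%, 5.21%, 5.76% and 5.40%. There the populations did not overlap, and the difference of -1.31 percentage points had the smallest p that 35 splits allow (exact permutation p = 0.0571, adjusted p = 0.133). The median width of these peaks was 609 to 614.5 bp in the positive and 651 to 707 bp in the negative libraries (exact permutation p = 0.0571). Their shares at gene ends were 59.1% ± 0.864 and 58.8% ± 0.710 (exact permutation p = 0.686).

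Height was compared in the 21421 regions with a peak in all 7 lists. In each library the pileup of these regions was ranked and turned into a normal score, on which a difference of 1 equals the SD over all regions, and the scores were tested with limma. Of these regions 951 had a higher rank in the positive libraries (4.44% of those tested) and 1105 a lower rank (5.16%; limma adjusted p below 0.05). With log2 pileup centred on the library median in place of the rank, 1879 were higher and 1426 lower, so the larger side changed. Without positive replicate 1, 2 or 3 the higher calls numbered 444, 432 and 451 and the lower calls 571, 613 and 639. With sequencing lane as a term, over the 6 libraries of lanes that hold both populations, 378 were higher and 463 lower, and the same 6 libraries without the term gave 636 and 769. With replicate number as a block 503 were higher and 624 lower. The median ratio of mean pileups was 1.46 among the higher and 0.568 among the lower regions. Libraries of the same population ranked these regions more alike (Spearman correlation of pileup across regions 0.919 to 0.922 within positive, 0.911 to 0.918 within negative) than libraries of different populations (0.838 to 0.855); regions of a library share its depth and input. Higher pileup from more nuclei that carry the mark and from more of it per nucleus cannot be told apart in these bulk libraries.

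Eomes had the largest gain in rank at a gene end, at chr9:118475955-118482571 (build mm10), where the mean pileup was 63 ± 2 (SD, n = 3) against 18 ± 2.94 (n = 4) and the rank difference 2.63 ± 0.22 (SE; limma adjusted p = 0.000224). Dmrta2, a dorsal telencephalic transcription factor, had 58, 77 and 72 fragments in the positive and 34, 26, 27 and 32 in the negative libraries (rank difference 2.16 ± 0.21, limma adjusted p = 0.000261). No positive library came near a negative one at either gene. Mfng, which encodes a fringe glycosyltransferase that modifies Notch, had 44, 51 and 43 fragments against 15, 13, 19 and 15 (1.96 ± 0.20, limma adjusted p = 0.000339). Emx2, a homeobox gene of cortical progenitors, had 60, 93 and 66 against 42, 37, 40 and 40, and its positive libraries varied more than its negative ones. Pax6, the radial glial paired-box gene, had 57, 74 and 72 against 47, 29, 34 and 36 (1.77 ± 0.24, limma adjusted p = 0.00154). The remaining regions with the largest gains lay at Shroom3 (pileup ratio 2.02), a regulator of apical constriction, at Ddr1 (2.36), a collagen receptor, and at Rftn2 (2.27), Cdk2ap1 (1.69) and Tead2 (1.72), a partner of the Hippo effector Yap. All 10, chosen as the largest differences that passed without overlap, passed again without each of the 7 libraries in turn. Of all 951 regions with a higher rank 243 did so.

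**Figure D2:**
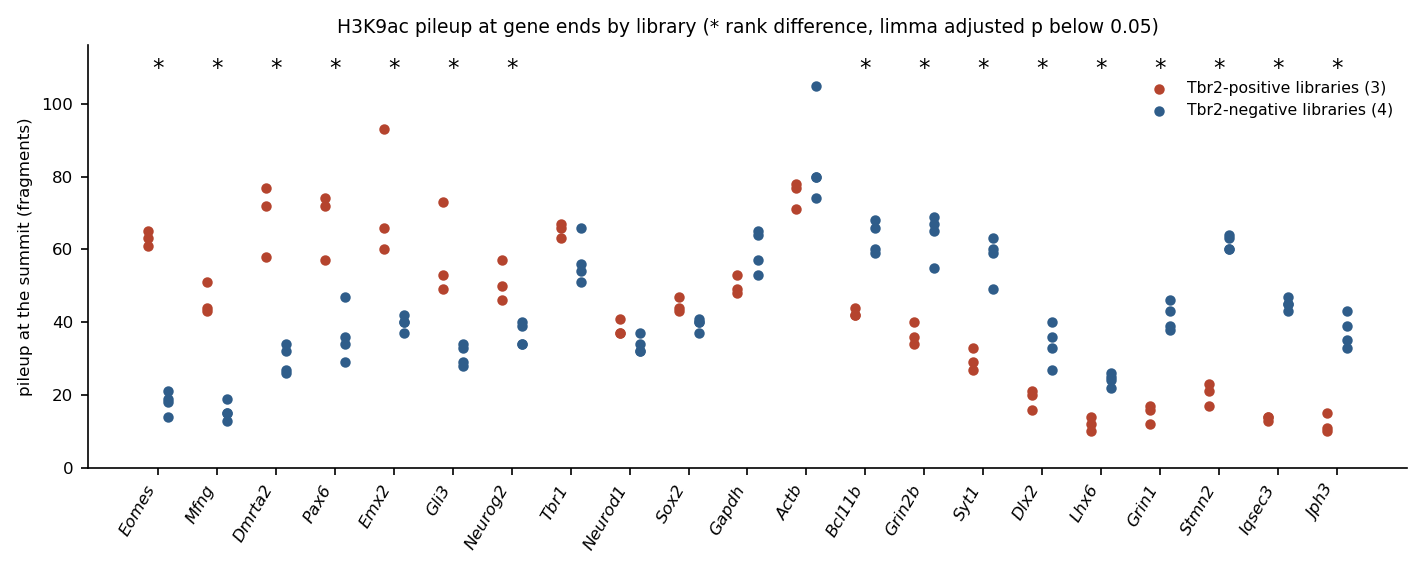
H3K9ac pileup (fragments at the summit) in each positive and negative vehicle library at the tallest gene-end region of 21 genes; a star marks a limma adjusted p below 0.05 for the rank. Eomes separates the populations most (61 to 65 against 14 to 21), Gapdh and Actb carry no star, and Stmn2 runs the other way (17 to 23 against 60 to 64).

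Basal progenitor genes were divided. Of 17 with a tested gene-end region 7 rose in rank and 1 fell (4.07% and 5.66% of all 12374 coding genes with such a region), where a gene counts when any of its gene-end regions passed. The median rank difference, taken at each gene's tallest region, was 0.52 beside -0.0033 over all of these genes. Besides Eomes and Mfng, the proneural gene Neurog2 had 46, 50 and 57 fragments against 39, 34, 34 and 40 (0.88 ± 0.20, limma adjusted p = 0.0166). That call ended without positive replicate 3 (limma adjusted p = 0.0681). Gadd45g, a growth-arrest gene, had 56, 64 and 56 fragments against 30, 38, 39 and 34, and Sstr2, a somatostatin receptor, 60, 62 and 66 against 48, 45, 44 and 38; both rose. The antiproliferative gene Btg2 also rose (51, 67 and 65 against 40, 48, 51 and 40). The chromatin remodeler gene Chd7 rose and the Notch ligand gene Dll3 fell only at a region other than their tallest, and their tallest regions did not pass (limma adjusted p = 0.133 and 0.127). Neurod1, which acts after Neurog2, had 37, 41 and 37 against 32, 32, 37 and 34, where 2 positive libraries tied with the highest negative one (limma adjusted p = 0.202). Neurog1 had 17, 20 and 18 against 19, 23, 23 and 18 and the groups overlapped (limma adjusted p = 0.884). Insm1, a zinc-finger gene of basal progenitors, had 3 tested regions with rank differences of 0.40, 0.18 and -0.37 (limma adjusted p = 0.439, 0.599 and 0.392).

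Of 19 radial glial genes tested 6 rose and none fell, with a median rank difference of 0.33. Among all 12374 coding genes with a tested end 4.07% rose and 5.66% fell. Gli3, a transcriptional effector of hedgehog signalling, had 49, 53 and 73 fragments against 34, 28, 33 and 29. Lhx2 had 73, 77 and 81 against 55, 52, 46 and 57 and Notch1 52, 47 and 54 against 38, 34, 36 and 32. In all 3 genes the populations did not overlap, as at 936 of the 951 regions with a higher rank. Sox2, shared by radial glia and basal progenitors, had 44, 43 and 47 against 40, 37, 40 and 41 (0.41 ± 0.18, limma adjusted p = 0.173). At Hes1 none of 3 tested regions passed, and the one at chr16:30063589-30064898, had 17, 23 and 20 fragments against 45, 34, 30 and 32 (-0.70 ± 0.23, limma adjusted p = 0.0654). At Hes5 1 of 2 regions rose (50, 54 and 51 against 42, 40, 43 and 40; limma adjusted p = 0.0275), a call that 6 of the 7 libraries were each needed for. Of 20 S-phase genes none passed in either direction by limma on rank. Of 20 G2/M genes 3 rose (Cenpf, Nusap1 and Cdc20; Nusap1 at a region other than its tallest), and Mki67 had 32, 28 and 31 against 22, 21, 27 and 31 (limma adjusted p = 0.188).

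Genes of neurons were among the largest losses in the positive libraries. Stmn2, a microtubule regulator of young neurons, had 23, 17 and 21 fragments against 63, 60, 64 and 60 (rank difference -2.16 ± 0.20, limma adjusted p = 0.000224). Iqsec3, an exchange factor of inhibitory synapses, had 13, 14 and 14 against 47, 43, 45 and 45, and the libraries of each population stood within 4 fragments of each other. Jph3, a junctophilin, had 10, 11 and 15 against 43, 33, 39 and 35. Runx1t1, a transcriptional corepressor, had 26, 29 and 37 against 64, 74, 69 and 71, and Chl1, an adhesion molecule of the L1 family, 29, 33 and 38 against 58, 69, 76 and 79. The others of the 10 largest losses were at Tmem181a (ratio 0.407), Coro2a (0.318), the shared end of Ap1b1 and the neurofilament gene Nefh (0.326), Igfbp3 (0.325), an IGF-binding protein, and Cyp4x1 (0.336). These 10, chosen in the same way, also passed without each library in turn. Of all 1105 regions with a lower rank 348 did so.

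By lists, 5 of 14 pan-neuronal genes with a tested end fell in rank and none rose (median -0.61). Of all 12374 coding genes with a tested end 5.66% fell and 4.07% rose. Of 21 glutamate and GABA receptor genes 9 fell and none rose (median -0.45), among them Grin1 with 12, 17 and 16 fragments against 39, 38, 43 and 46, and Grm7 with 14, 18 and 22 against 46, 44, 43 and 44. At Grin1 and Grm7 the positive libraries held 12 to 22 fragments. The populations did not overlap there, as at 1089 of the 1105 regions with a lower rank. Of 17 voltage-gated channel genes 5 fell and none rose. Of 15 interneuron genes 5 fell (Dlx2, Dlx6, Lhx6, Erbb4 and Sp9) and none rose. Of 11 deep-layer genes 3 fell (Bcl11b, Ldb2 and Ntsr1), and Fezf2, which specifies subcortical projection neurons, had 43, 55 and 56 against 42, 40, 54 and 48 (limma adjusted p = 0.213). Of 8 upper-layer genes 3 rose (Pou3f2, Pou3f3 and Unc5d), with Pou3f2 at 71, 73 and 73 against 53, 54, 54 and 54. Tbr1, a T-box factor of deep-layer neurons, had 63, 66 and 67 against 51, 54, 66 and 56 (limma adjusted p = 0.0769).

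Markers of other cells and reference genes give the background of these lists. Of 19 housekeeping genes 1 rose (Gusb) and 1 fell (Eef1a1, at a region other than its tallest), with a median of 0.0037; Gapdh had 48, 49 and 53 fragments against 65, 53, 64 and 57 (limma adjusted p = 0.177) and Actb 71, 78 and 77 against 80, 80, 105 and 74 (limma adjusted p = 0.263). Of 8 histone deacetylase genes none passed by limma on rank, with a median of 0.05. Gene-end peaks were present at 6 to 9 of 13 microglial genes in the positive and 5 or 6 in the negative lists, with none in any list at Cx3cr1, Trem2, Fcrls and Tyrobp. Of vascular and meningeal genes 6 to 9 of 15 had a peak in the positive and 7 to 9 in the negative lists, and none in any list at Pecam1, Tek, Col3a1 and Lum. Interneuron genes with a peak numbered 14 to 16 of 21 in the positive and 17 to 20 in the negative lists, and oligodendrocyte precursor genes 2 or 3 of 7 and 4 to 7. The part of these cell types in the differences above was not tested.

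Inside genes, 284 of 4404 regions rose in rank (6.45%) and 239 fell (5.43%), and between genes 136 of 2301 rose (5.91%) and 105 fell (4.56%). At gene ends 531 of 14716 rose (3.61%) and 761 fell (5.17%), so the falls outnumbered the rises there and not in the other 2 classes; the difference between classes was not tested. The largest intragenic gains lay in Zc3h12c (46, 46 and 58 fragments against 13, 15, 22 and 20), Ankrd6 (48, 53 and 68 against 27, 22, 23 and 17), Gucy1b2, Uaca and Celsr1. Those in Zc3h12c and Ankrd6, and the losses in Trak1 and Pakap named next, lay within 1 kb of an internal transcript start of the promoter table. Celsr1 encodes a planar polarity cadherin, and its intragenic region had 22, 29 and 21 fragments against 13, 8, 13 and 13. Among the largest intragenic losses were those in Trak1 (16, 13 and 12 against 37, 47, 44 and 38), a motor adaptor for mitochondria, Arhgef12, Pakap and Tmcc1. These 9 regions were chosen among those where the populations did not overlap. RNA of Trak1 did not pass (log2 fold change 0.09, edgeR adjusted p = 0.720).

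Between genes the leading gain lay 10619 bp from Btg2, at chr1:134062685-134064246, with 41, 49 and 42 fragments against 14, 15, 16 and 13 (1.98 ± 0.19, limma adjusted p = 0.000261). A region 63595 bp from Wnt7b had 54, 57 and 74 fragments against 31, 31, 28 and 27, while Wnt7b RNA was lower in the positive libraries (log2 fold change -0.64 ± 0.14, edgeR adjusted p = 0.00641). The nearest gene is a label of position and not a shown target. Further gains lay nearest to Cdon, Lrig2 and Zdhhc21. The leading intergenic losses were 1044 bp from Egr3, an activity-regulated gene, with 25, 21 and 22 against 68, 68, 51 and 56, and 8539 bp from Ythdf1, with 17, 20 and 27 against 62, 56, 59 and 57. Smaller peaks that fell lay nearest to Gucy2e, Pdk3 and Cacng4.

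Many regions passed on width and not on the rank of height, and whether the 2 measures differed was not tested. Bases covered by peaks were tested on the log2 scale with limma over the same 21421 regions, and 431 were wider in the positive libraries (2.01%) and 1699 narrower (7.93%). With widths quantile-normalized between libraries the counts were 659 and 1036, so the share of wider calls depended on the scaling. Without negative replicate 2, 3 or 4 the narrower calls numbered 956, 949 and 1025. Without positive replicate 1, 2 or 3 or negative replicate 4 the wider calls numbered 217, 225, 209 and 271. Of the narrower regions 548 also fell in rank and 1146 passed in neither direction on rank. Of the wider ones 180 also rose and 251 did not pass on rank. Median covered width was 1279 against 686 bp in the wider and 689 against 1245 bp in the narrower regions. With sequencing lane as a term 121 were wider and 529 narrower, beside 271 and 1025 in the same 6 libraries without it. With replicate number as a block, a pairing that the samples do not show, no region passed; the counts at unadjusted p are given in the closing section.

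The Dlx genes, homeobox factors of interneurons, were narrower in the positive libraries, and Dlx1 passed on width but not on rank. At Dlx1 the covered width was 1037, 880 and 384 bp in the positive and 6881, 7363, 7396 and 6865 bp in the negative libraries (log2 difference -3.34 ± 0.32, limma adjusted p = 0.00219). Its pileup was 17, 20 and 27 against 25, 30, 35 and 29, where the populations overlapped (rank difference -0.34 ± 0.20, limma adjusted p = 0.306). At Dlx2 the width was 821, 1048 and 699 bp against 6189, 7351, 7477 and 7568 bp, and its rank call (limma adjusted p = 0.0399) ended without each of 6 libraries in turn (up to 0.135). Dlx6 covered 538, 568 and 700 bp against 5217, 5209, 5768 and 5175 bp. Lhx6, which follows the Dlx genes in interneurons, covered 505, 153 and 236 bp against 3492, 3662, 3713 and 3395 bp, and Sp9 225, 152 and 231 bp against 1380, 1900, 1802 and 1637 bp. Dlx6, Lhx6 and Sp9 each also had a gene-end region that fell in rank, at Lhx6 by -1.37 ± 0.25 (limma adjusted p = 0.00691). Gad2, a GABA-synthesizing enzyme, covered 2397 ± 237 against 7029 ± 657 bp with a rank that did not pass (limma adjusted p = 0.0702). The largest narrowing at gene ends otherwise lay at Jph3, Nrxn3, a presynaptic neurexin, Adgrb1, Kcnk12 and Crmp1. At Nrxn3 the width was 310, 517 and 324 bp against 4256, 4098, 4705 and 4322 bp and the rank did not pass (limma adjusted p = 0.158).

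**Figure D3:**
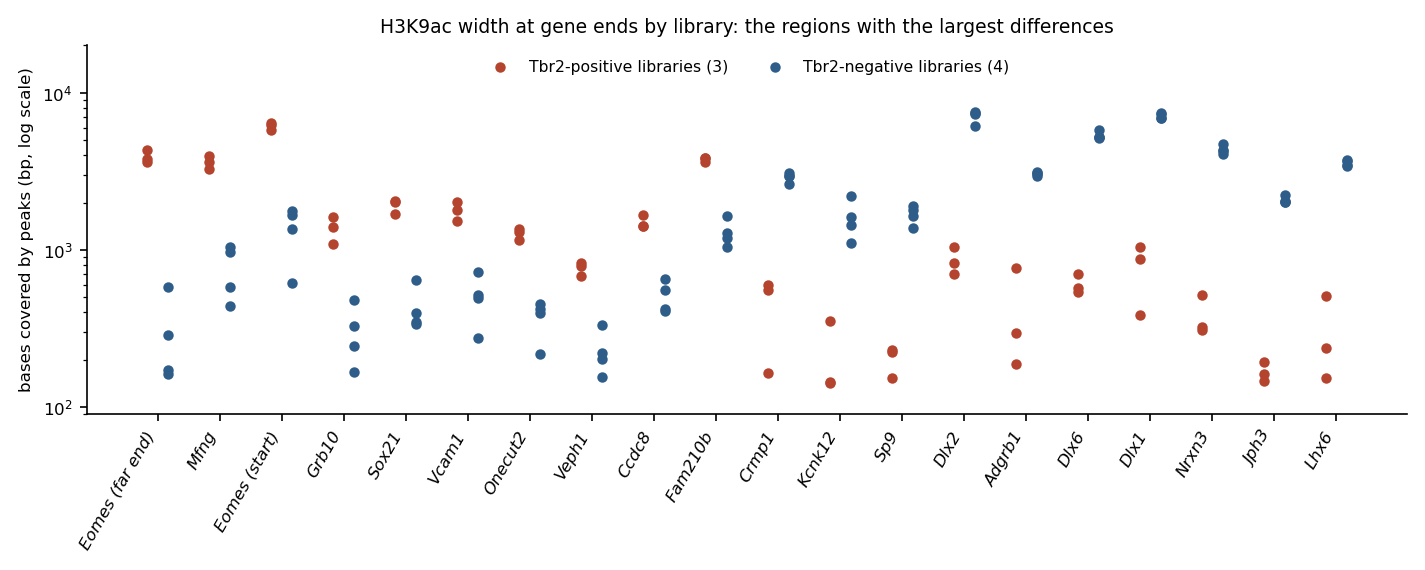
Bases covered by H3K9ac peaks (log scale) in each positive and negative vehicle library at the 20 gene-end regions with the largest width differences, 10 in each direction. The regions were chosen among those where the populations do not overlap. Lhx6 covers 153 to 505 bp in the positive and 3395 to 3713 bp in the negative libraries.

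In the other direction Eomes again led. Its far end, at chr9:118484688-118489887, was covered over 3604, 4319 and 3785 bp in the positive and 172, 286, 578 and 163 bp in the negative libraries (log2 difference 3.90 ± 0.43, limma adjusted p = 0.00316). The region at its start covered 6243, 6442 and 5772 bp against 1364, 1765, 1678 and 615 bp. Mfng was covered over 3627 ± 359 against 755 ± 291 bp. The other widest gains lay at Grb10, Sox21, Vcam1, Onecut2, Veph1, Ccdc8 and Fam210b. Neurog1, whose height did not differ beyond the spread, covered 1531 ± 166 bp in the positive and 695 ± 173 bp in the negative libraries (1.16 ± 0.19, limma adjusted p = 0.0131). Neurog2 covered 5126 ± 188 against 2606 ± 120 bp. Tbr1 was narrower, 7227 ± 516 against 11608 ± 276 bp (-0.69 ± 0.08, limma adjusted p = 0.00475), and so was the start of Bcl11b, the deep-layer zinc-finger gene also known as Ctip2, at 3020 ± 237 against 9447 ± 853 bp. Fezf2 covered 9546 ± 164 and 9514 ± 154 bp and Gapdh 2673 ± 329 and 2662 ± 237 bp.

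By lists, 8 of 17 basal progenitor genes with a tested end were wider and 2 narrower, and 6 of 19 radial glial genes were wider and none narrower, where 186 of all 12374 coding genes were wider and 1071 narrower. Of 21 receptor genes 13 were narrower, of 15 interneuron genes 8, of 14 pan-neuronal genes 8 and of 11 deep-layer genes 5, with none wider in these 4 lists. Within genes the largest gains in width lay in Celsr1, in Pax6 (2924, 2191 and 2334 bp against 242, 608, 928 and 243), Ankrd6, Btbd17 and Map4k4. Among the largest intragenic losses were those in Bcl11b (161, 777 and 397 bp against 2958, 2463, 3477 and 3210), Sybu, Bcl11a and Dmtn. The intragenic call in Pax6 ended without any 1 of the positive libraries (limma adjusted p up to 0.0697). Between genes the widest gains lay nearest to Pou3f3, Tmem182 (2 regions) and Ppara (2 regions), and the losses nearest to Ythdf3, Igbp1b, Tpra1, Vwa5b1 and Ythdf1.

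By presence, 1031 regions (0.571% of 180672) had a peak in all 3 positive lists and in no negative one, and 887 (0.491%) in all 4 negative lists and in no positive one. Such a region has an exact permutation p of 0.0286 in 1 direction before adjustment, so none can pass over all regions, and these counts are descriptions. They moved with the list settings: among peaks with -log10 q of at least 5 they were 492 and 559, and among the 30000 strongest peaks 431 and 576, so the order of the populations turned. Without 1 positive library the positive count was 2190, 2993 and 2847 (replicates 1, 2 and 3 left out), and without negative replicate 1 or 4 the negative count was 1531 and 1451. Leaving out a library relaxes the rule, so these counts could not fall. Both sets were narrow (median 401 and 545 bp, against 1276 bp for regions of all 7 lists) and low, with a median pileup of 12.7 and 13.75 fragments. Of the positive-only regions 125 lay at gene ends, 574 in gene bodies and 332 between genes. Of the negative-only regions 228, 457 and 202 did.

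The tallest positive-only region at a gene end lay at Nhlh1 (20, 25 and 27 fragments), a helix-loop-helix gene of newly born neurons, at chr1:172055946-172057563. Neurod4, a proneural gene downstream of the neurogenins, had 20, 16 and 18 fragments at chr10:130279670-130280567. RNA of both was higher in the positive libraries, Nhlh1 at 31.9 ± 10.7 against 1.81 ± 0.232 CPM (n = 3 each; log2 fold change 4.14 ± 0.37, edgeR adjusted p = 1.33e-05) and Neurod4 at 120 ± 23.5 against 3.77 ± 2.04 CPM (4.99 ± 0.42, edgeR adjusted p = 1e-05). Others of the tallest lay at Mok, Ifitm3, Snrpa and Rhcg, and RNA of none of these 4 genes was higher at an edgeR adjusted p below 0.05. Mok RNA was lower in the positive libraries (log2 fold change -0.88, edgeR adjusted p = 0.0344). In gene bodies the tallest lay in Faf1 (22, 29 and 28 fragments), Calu, Parva, Bach2, Msl3l2 with Tbc1d32, Nckap5, Akap6 and Cux1, and between genes nearest to Cxadr (26, 29 and 36), Ifna13, Tmem38b, Klf3, Ppara, Epc2 and Dmrta2. The region in Msl3l2 with Tbc1d32 lay within 1 kb of a transcript start of the promoter table.

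The tallest negative-only region at a gene end lay by the start of Camk2b, the beta subunit of a calcium-dependent kinase of synapses, at chr11:6063527-6065614, with 42, 31, 36 and 46 fragments. Next came Kcns2 (32, 30, 34 and 28), a potassium channel subunit, Mroh5, Hs3st2 (24, 24, 32 and 34), a heparan sulfate sulfotransferase of neurons, Ak5, Galnt9 (25, 20, 32 and 32), Dlx6 (28, 23, 33 and 25) and Wnt4. In gene bodies the tallest lay in Ptprn2, Igfbp3, Rbfox3 (the gene of NeuN), Gabra5, Rapgef5, Tmem132e, Grm5 and Exoc3l2. Those in Igfbp3, Gabra5 and Rapgef5 lay within 1 kb of a transcript start of the promoter table. The receptor genes Gabra5 (23, 23, 28 and 26) and Grm5 (27, 22, 22 and 22) were lower in RNA as well (edgeR), while Rbfox3 was higher in RNA (log2 fold change 0.92 ± 0.18, edgeR adjusted p = 0.00240). Sox5 held 5 negative-only regions inside the gene and Mef2c 4, the only coding genes with 4 or more, chosen here after their values were seen. Both are transcription factors of postmitotic cortical neurons, and Mef2c RNA stood at 230 ± 103 against 1047 ± 175 CPM. Between genes the tallest lay nearest to Topaz1, Myof, Kif13b, Cetn3, Dlx1 (2 regions), Gpr151 and Tle4.

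Counted by gene, 55 of 34614 annotated genes had a gene-end peak in all positive and no negative lists and 151 the reverse. Among 19924 named coding genes these were 20 (0.100%) and 87 (0.437%). Members of the gene lists among them were Neurod4 of the basal progenitor list on the positive side and, on the negative side, Sp9 of the interneuron list, the receptor genes Grin2a and Grik2, and Myod1, a muscle gene of the list held silent in cortex. This count asks whether a library's own peak came within 1 kb of an annotated end, and Sp9, Grin2a and Grik2 also touched a merged region with peaks in all 7 lists (at Grik2 61, 72 and 72 fragments against 59, 59, 67 and 62), whose positive peaks lay farther from the end. The positive-only count was 98, 138 and 134 without positive replicate 1, 2 or 3 and 90 and 102 without negative replicate 2 or 3, and the negative-only count 247 without positive replicate 1. With fewer lists to meet the rule, these counts could not fall either. Of the genes always described, Gad1 had a gene-end peak in 1 of 3 positive (17 fragments) and 4 of 4 negative lists (26, 28, 38 and 28), and Olig2 in 1 of 3 (15) and 4 of 4 (13, 16, 19 and 17).

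RNA from other libraries moved with the acetylation at gene ends. Over all 19999 genes tested with a symbol, 9.98% were higher and 11.5% lower in the positive vehicle libraries (edgeR adjusted p below 0.05). Of 487 genes with a higher rank at an end, 205 were higher in RNA (42.1%) and 18 lower (3.70%), and their median log2 fold change was 0.55. Of 644 with a lower rank, 348 were lower (54.0%) and 20 higher (3.11%), with a median of -1.25. Genes whose ends passed in neither direction stood at 13.3% higher and 11.8% lower, close to all genes. Width gave a like picture, with 111 of 179 genes with a wider end higher in RNA (62.0%) and 538 of 993 with a narrower end lower (54.2%). Runx1t1 RNA stood at 62.6 ± 20.5 against 326 ± 65 CPM (log2 fold change -2.38 ± 0.23, edgeR adjusted p = 2.07e-05). Many genes did not follow: among 10486 whose ends passed in neither direction, 1399 were higher and 1239 lower in RNA. Of 20 S-phase genes 19 were higher in RNA and none passed on rank, and of 20 G2/M genes 19 and 3 rose. Of 11 upper-layer genes 3 were higher and 7 lower in RNA, while 3 of 8 tested rose in rank. Receptor genes went the same way in both, with 19 of 23 lower in RNA and 9 of 21 lower in rank. Neurog1 and Neurod1 had log2 fold changes of 4.90 ± 0.57 and 2.72 ± 0.21 in RNA with ranks that did not pass. Shroom3, with the second largest rank difference at gene ends, missed the threshold in RNA (1.06, edgeR adjusted p = 0.0782).

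**Figure D4:**
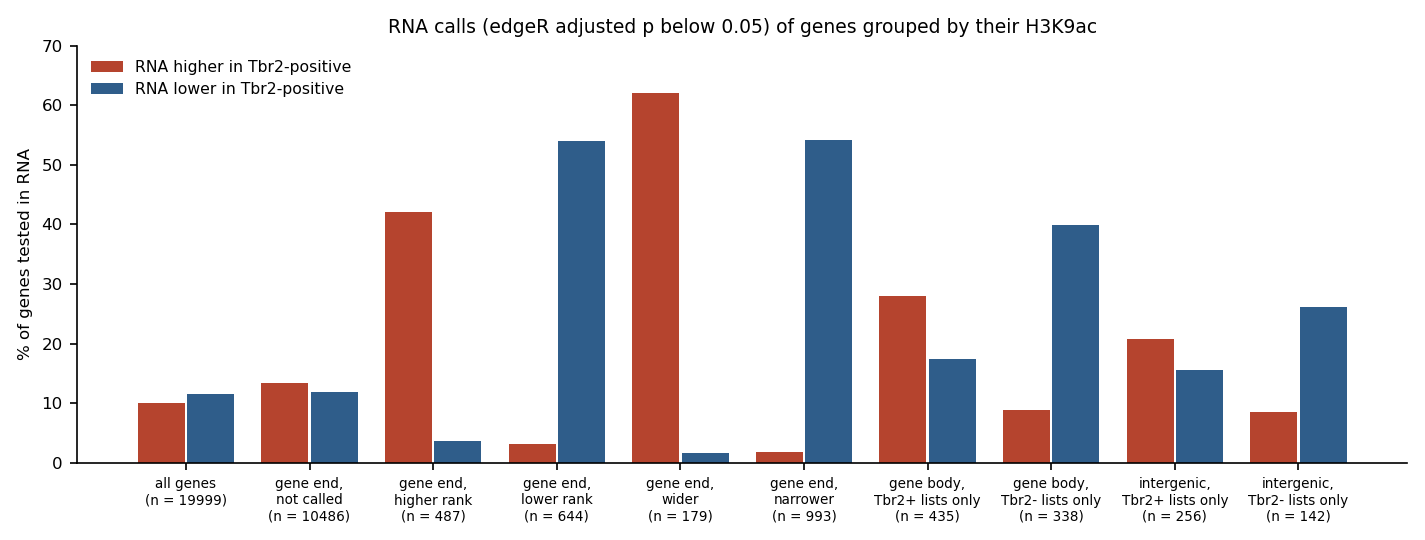
Share of genes with higher and lower RNA in Tbr2-positive vehicle libraries (edgeR adjusted p below 0.05), for all genes and for genes grouped by their H3K9ac at gene ends, in gene bodies and between genes. Genes with a higher rank at an end are 42.1% higher and 3.70% lower in RNA, against 9.98% and 11.5% of all genes.

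RNA was also set beside the regions inside genes and between them. Host genes of intragenic regions with a higher rank were higher in RNA in 75 of 216 cases (34.7%) and lower in 29 (13.4%). Those of intragenic regions with a lower rank were lower in 90 of 204 (44.1%) and higher in 21 (10.3%). Hosts of intragenic regions that passed in neither direction were 13.02% higher and 20.6% lower. Host genes of positive-only regions were higher in RNA in 122 of 435 cases (28.05%) and lower in 76 (17.5%), with a median of 0.12. Hosts of negative-only regions were lower in 135 of 338 cases (39.9%) and higher in 30 (8.88%), with a median of -0.61. Nearest genes of positive-only regions between genes were higher in 53 of 256 cases (20.7%) and lower in 40 (15.6%), and those of negative-only regions lower in 37 of 142 (26.1%) and higher in 12 (8.45%). Nearest genes of intergenic regions with a higher rank were higher in 19 of 102 cases and lower in 14, and those with a lower rank higher in 12 of 68 and lower in 10. These shares (18.6% and 13.7%, then 17.6% and 14.7%) lie near those of intergenic regions that passed in neither direction, 16.1% higher and 15.9% lower. Of the 14 genes with a gene-end peak in positive lists only that were tested in RNA, 2 were higher and none lower (edgeR; 1 of them Neurod4). Of 58 with a gene-end peak in negative lists only, 19 were lower and 4 higher.

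The TSA libraries give the same contrast in other samples. Over the 17222 regions with a peak in all 15 H3K9ac lists, 928 had a higher (5.39%) and 1135 a lower rank (6.59%) in the positive TSA libraries. Of the 738 vehicle gains among these regions, 716 (97.0%) had the same sign in TSA and 373 passed again, and of the 734 vehicle losses 714 (97.3%) had the same sign and 426 passed again. None passed in the opposite direction by limma. Eomes had a rank difference of 3.41 in TSA, Pax6 1.98, Stmn2 -2.33 and Bcl11b -1.18 (limma adjusted p = 9.54e-08, 2.02e-05, 1.25e-05 and 0.00361). No region differed between the vehicle and TSA contrasts by limma at adjusted p below 0.05 (907 at unadjusted p below 0.05, smallest adjusted p = 0.563).

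**Figure D5:**
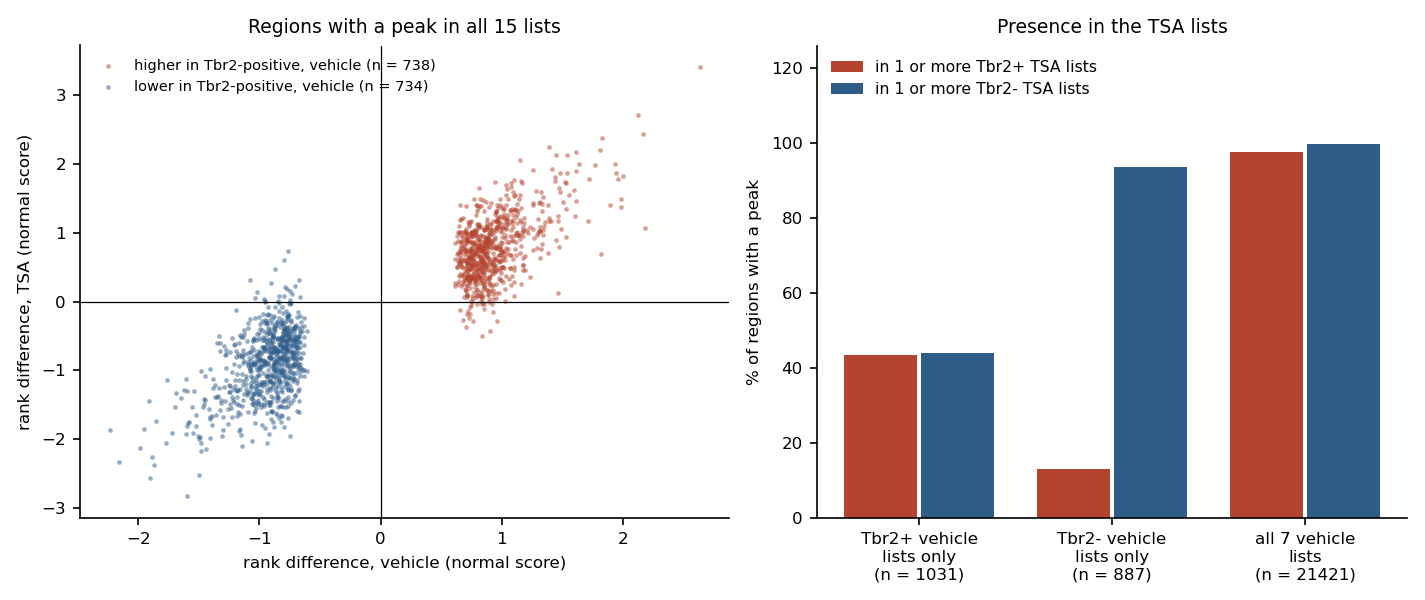
Left, rank difference (positive minus negative, normal score) in vehicle and in TSA libraries for the 738 gains and 734 losses of the vehicle comparison with a peak in all 15 lists. Right, share of regions of each vehicle presence class with a peak in at least 1 positive or negative TSA list; negative-only regions recur in negative TSA lists (93.6%) far more than in positive ones (12.97%), positive-only regions at shares of 43.5% and 44.0%.

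Presence recurred in the TSA lists mostly for the negative-only regions. Of the 887 negative-only vehicle regions, 830 (93.6%) had a peak in at least 1 negative TSA list and 115 (12.97%) in a positive one. In 817 more negative than positive TSA lists held the region, in 7 fewer, and 327 were in all 4 negative and no positive TSA list. Of the 1031 positive-only regions, 448 (43.5%) had a peak in a positive TSA list and 454 (44.0%) in a negative one. More positive lists held the region in 298 and more negative lists in 282, and 15 were in all 4 positive and no negative TSA list. Those of Nhlh1, Neurod4 and Faf1 were among the 15. The TSA lists were also uneven over the 21421 regions of all 7 vehicle lists. More negative TSA lists held 3313 of these regions (15.5%) and more positive ones 540 (2.52%). In all 4 negative and no positive TSA list were 259 of them, and 1 in all 4 positive and no negative. The positive TSA lists were shorter, with 31823 to 40053 peaks against 47835 to 78929 in the negative TSA lists. Their input had 20.1 Mreads, fewer than the 22.2 to 30.3 Mreads of their ChIP libraries, so the caller scaled their pileups down, which it did not do for the vehicle libraries. The part of list length in this difference was not tested.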

How the data were processed

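Per the file headers, the authors called H3K9ac peaks separately in each library against the 1 input of its group. They used MACS 2.1.0.20140616 with a q-value cutoff of 0.1, left out duplicate tags and had the caller scale whichever of ChIP and input was larger down to the other. The deposited lists give peak coordinates (mm10, per the submitters' processing notes), a pileup signal at the summit, a fold enrichment ratio over the local background and the −log10 q-value, all made by the authors' caller. ChIP libraries had fewer tags than their inputs in all 7 vehicle libraries, and 100% of their pileups were whole fragment counts. RNA values are raw read counts per gene as deposited by the authors; no source used here names the aligner or the counter. RNA totals were 18.6 to 26.3 M counts per library.

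Peaks of the 7 lists were merged at 1 bp of overlap. Regions were assigned to gene ends (1 kb), gene bodies or the space between genes with the RefSeq gene table (GRCm38.p6, protein-coding and lncRNA genes, no strand). The strand was available only for the 27025 symbols of the promoter table, so either end was used, where the transcript start had been planned. Normal scores of within-library ranks and log2 covered widths were fitted with limma 3.58.1 (R 4.3.3), RNA with edgeR 4.0.16 (filterByExpr, TMM, robust quasi-likelihood over 10 libraries), each with Benjamini-Hochberg adjustment over all features. Lane numbers were read from the headers. Fits were tested on simulated data. Members, gene lists and the naming rule were chosen with earlier results of these data known. The rule took the always-named genes, the 8 tallest regions per presence class and the 10 or 5 largest differences per rank and width class. Those differences were taken among regions that passed and whose populations did not overlap. Same-numbered H3K9ac libraries did not deviate together (correlations 0.0032, -0.0166 and -0.0269), so the numbers were not taken as pairs. Positive replicate 2 with negative replicate 3 had the highest correlation, 0.0464. Same-numbered RNA libraries had 0.0994, 0.0806 and 0.0985. File names of positive H3K9ac replicates 2 and 3 carry other numbers than their titles, and the titles were used. Alternatives tried are other list thresholds, rank measures, scalings, windows, a lane term, a block, DESeq2 1.42.0 for RNA and leaving out each library. Input libraries were not analysed here. A few named genes that the rule selects are not reported here.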

Additional observations from a re-analysis of the deposited data

Results flagged for a closer look

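Among 74 groups of 4 negative vehicle libraries checked for a library far from the rest, 2 had such a library, and chance alone flags about 1 in 20. At the intragenic region of Celsr1 negative replicate 2 had a pileup of 8 fragments where the other 3 negative libraries had 13 each, so the gap made up the whole range (ratio 1). At the Insm1 region chr2:146222488-146226594 negative replicate 4 had 62 fragments where the others had 45, 43 and 43 (gap over range 0.895).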

How the results depend on the processing

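Presence counts changed with the lists: among peaks with -log10 q of at least 5 there were 492 positive-only and 559 negative-only regions and 243 negative-only genes, and among the 30000 strongest peaks 431, 576 and 262. With transcript starts only, an alternative added after seeing the data, 36 genes were positive-only. Leaving out 1 library gave 1232 to 2993 positive-only and 1171 to 1531 negative-only regions, and 71 to 138 positive-only and 173 to 247 negative-only genes. These presence counts could not fall when a library was left out, because fewer lists then had to meet the rule. Under these thresholds (-log10 q of at least 5, then the 30000 strongest) the difference in median peak width (positive minus negative) was -76.0 and -62.2 bp, beside -11.2 bp in whole lists, and that in the share of 2 kb or more -1.34 and -1.31 points, beside -0.667. Of 21421 regions, log2 pileup gave 1879 with a higher value; a lane term gave 378 higher and 463 lower ranks, 121 wider and 529 narrower. The replicate block (numbers 1 to 3, 6 libraries) gave 503 higher and 624 lower ranks, and 0 wider and 0 narrower regions by limma (1154 and 3427 at unadjusted p below 0.05, smallest adjusted p = 0.0518); the same 6 libraries without either term, added after seeing the data, gave 636, 769, 271 and 1025. Of the block's calls 448 higher and 590 lower were also called without it. Quantile-normalized widths gave 659 wider and 1036 narrower. Leaving out 1 library gave 432 to 667 higher and 571 to 782 lower ranks, 209 to 370 wider and 949 to 1210 narrower, and 243 higher and 348 lower regions passed in every such fit. For RNA, the replicate block gave 203 higher genes among those with a higher rank (205 without) and 354 lower among those with a lower rank (348 without). No direction reversed among the 46 named rank calls and 40 named width calls. Most of these were chosen as the largest differences whose populations did not overlap, so leaving out 1 library could not turn their direction. Under the replicate block none of the 40 named width calls passed. Depth limits regions near 10 fragments, where 1 library can miss a peak that another calls.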
